A study of Mus musculus with 18 samples.

Results

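The platelet-derived growth factor (PDGF) system was followed through its 6 genes, the ligand genes Pdgfa, Pdgfb, Pdgfc and Pdgfd and the receptor genes Pdgfra and Pdgfrb, of 55401 genes counted. They were chosen by name, and all 6 were found and passed the filter on low counts in every comparison. RNA was measured in 18 libraries of primary mouse cholangiocytes, the epithelial cells that line bile ducts, in 6 groups of 3. Wild-type (WT) libraries and libraries from mice with polycystic liver disease (PLD) were made at 1 month and at 2 months after tamoxifen. The other libraries came from PLD mice given CPTH6, known as an inhibitor of histone acetyltransferases, or ML324, known as an inhibitor of histone demethylases, and their titles give 3 months. The labels name no Cre line and no inactivated gene. There is no untreated PLD group at 3 months, so compound, month and the making of the libraries, which the protocol states separately for the compound groups, cannot be told apart. The cells were caught from minced, enzyme-digested bile ducts with beads carrying an antibody to EpCAM, and nothing in the labels says whether replicates are separate animals, so the p-values cover no more than the variation among the libraries at hand, part of which may be technical.

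PDGFs are secreted growth factors that act as dimers on a pair of receptor tyrosine kinases. PDGF-A and PDGF-C bind mainly the alpha receptor, PDGF-D mainly the beta receptor, and PDGF-B binds both. In liver the receptors are known from stellate cells, portal fibroblasts and pericytes, while the ligands can be made by bile duct epithelium, endothelium, macrophages and platelets, so the system is known for signals from epithelium and vessels to the matrix-forming cells around ducts.

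The receptor genes and the ligand genes moved differently across the 6 groups. Pdgfrb fell in PLD at 2 months, and both receptor genes were lower in the CPTH6 and ML324 libraries than in untreated PLD at 2 months. Pdgfa rose in PLD at 1 month and at 2 months, Pdgfc rose in PLD at 2 months, and Pdgfd was higher with CPTH6 than in untreated PLD at 2 months. Some of these calls were lost under other settings or without single libraries. This held for Pdgfa at 1 month in 8 of 13 alternatives, and at 2 months for Pdgfrb in 6 and Pdgfc in 2 of 13. Pdgfb was not called in any of the 8 comparisons as fitted, though it was in 1 of them without the filter on low counts. Levels below are CPM, counts scaled to a common library size with TMM factors, and changes are log2 fold changes ± standard error from edgeR with 3 libraries per group; a gene is called at an adjusted p under 0.05 over all genes tested.

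**Figure D1:**
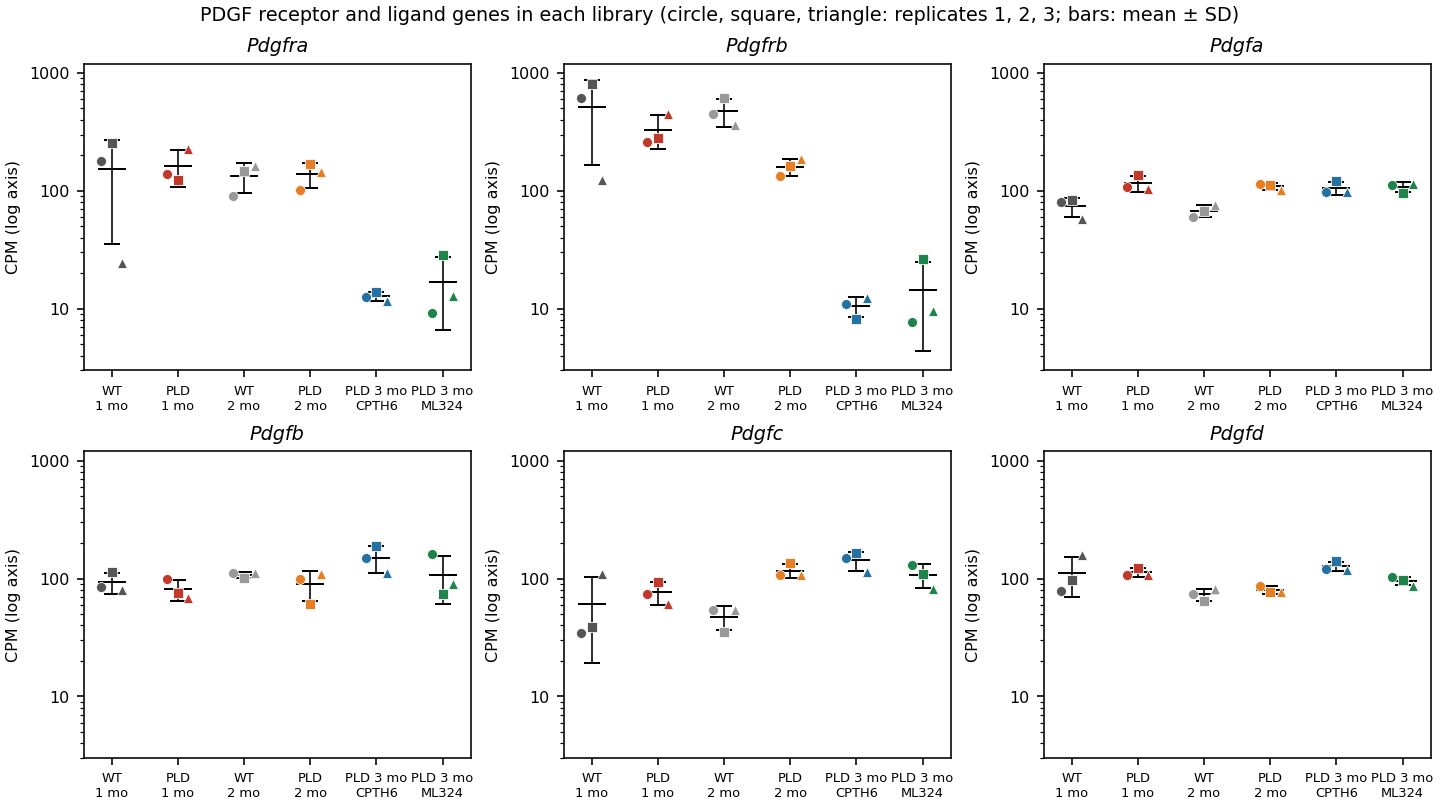
CPM on a log axis of the 6 PDGF genes in each of the 18 libraries, by group, with the group mean and SD. Pdgfra and Pdgfrb lie at or below 28.7 CPM in all 6 compound libraries, while each of the 4 ligand genes is at or above 73.6 CPM there.

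Library totals ran from 16345740 to 29277311 counts, and the 6 genes had 140 to 21756 counts each in a library. Cholangiocyte markers averaged 7.28 to 9.76 log2 CPM over the groups, and none of the 15 was at 0 in all libraries of a group. In WT at 2 months their 7.28 lay below endothelial (8.89), stellate cell and fibroblast (8.37) and pericyte and smooth muscle (7.58) markers. In WT at 1 month their 7.87 lay below stellate cell and fibroblast (8.03) and above pericyte (7.71) and endothelial (7.65) markers. In PLD at both times they lay above all of these. Such means are over different genes and do not give cell shares. A pair of WT libraries stood apart. WT replicate 3 at 1 month had stellate cell and fibroblast markers at a mean of 6.32 log2 CPM against 8.84 and 8.94 in replicates 1 and 2. WT replicate 1 at 2 months had a count in 40039 genes, against 22780 to 30332 in the other 17 libraries.

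Pdgfrb encodes the beta receptor, which carries the PDGF-B and PDGF-D signal in pericytes and stellate cells. The gene (ENSMUSG00000024620.11) lies on the plus strand of chromosome 18 from 61045150 to 61085061 in mm10. Its levels were 618, 800 and 124 CPM in WT replicates 1 to 3 at 1 month and 260, 279 and 452 CPM in PLD. At 2 months they were 452, 611 and 363 CPM in WT and 133, 162 and 185 CPM in PLD. The month 2 groups did not overlap, whereas at 1 month WT replicate 3 lay below every PLD library.

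At 2 months Pdgfrb fell by 1.55 ± 0.52 on the log2 scale (edgeR adjusted p = 0.036, n = 3 per group), to 0.341 times the WT level, with a 95% interval from -2.71 to -0.40. This call was lost when any 1 of PLD replicates 1, 2 and 3 or WT replicates 1 and 2 was left out, with changes from -1.63 to -1.30 and edgeR adjusted p-values from 0.0656 to 0.112. At 1 month the change of -0.65 ± 0.51 was not called (edgeR adjusted p = 0.469). Without WT replicate 3 the 1 month value was -1.11 ± 0.28 (edgeR adjusted p = 0.0199), so that single library decides the call. Leaving it out also raised the calls over all genes at 1 month from 892 of 17749 to 3485 of 18521. The errors at both months come from the same model of all untreated libraries. WT replicate 3 at 1 month thus also enters the Pdgfrb error and adjusted p at 2 months.

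Pdgfra encodes the alpha receptor, which binds PDGF-A and PDGF-C and is known from fibroblasts and stellate cells. The gene (ENSMUSG00000029231.15) lies on the plus strand of chromosome 5 from 75152292 to 75198215. WT replicates 1 to 3 at 1 month had 179, 252 and 24.2 CPM and PLD had 138, 124 and 228 CPM. At 2 months WT had 91.0, 148 and 163 CPM and PLD had 102, 169 and 145 CPM. The WT and PLD groups overlapped at both times.

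Pdgfra was not called in PLD against WT, with 0.09 ± 0.61 at 1 month and 0.07 ± 0.61 at 2 months. The 95% intervals ran from -1.25 to 1.43 and from -1.27 to 1.41, so changes of either sign remain within them. Both come from the same model of all untreated libraries. WT replicate 3 at 1 month, at 24.2 CPM, thus also enters the interval at 2 months, and how far it widens that interval was not tested. Without WT replicate 3 the 1 month value was -0.41. Whether Pdgfrb and Pdgfra differ in their response to genotype was not tested.

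The balance of the receptor transcripts was computed per kilobase of exon, since Pdgfra has 10.024 kb of exon in the gene models and Pdgfrb 5.478 kb. This ratio was chosen after the levels had been seen and carries no test. Pdgfrb stood at 6.34, 5.81 and 9.37 times Pdgfra in WT at 1 month and at 3.45, 4.12 and 3.63 times in PLD. At 2 months the ratios were 9.08, 7.56 and 4.09 in WT and 2.37, 1.76 and 2.34 in PLD. Every PLD library was below every WT library of its month, including WT replicate 3 at 1 month, in which both receptors were low. In the compound libraries the ratio was between 1.09 and 1.92.

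**Figure D2:**
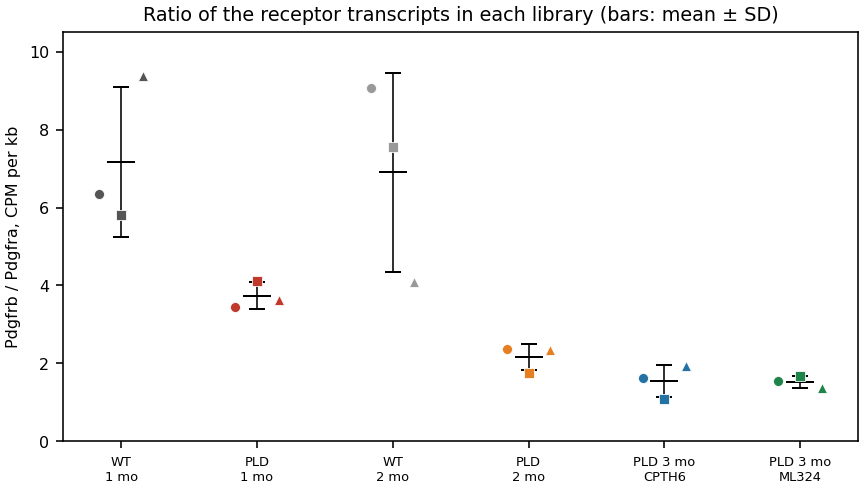
Ratio of Pdgfrb to Pdgfra, both in CPM per kilobase of exon, in each library, with the group mean and SD on a linear axis from 0. The 6 WT libraries lie between 4.09 and 9.37, the untreated PLD libraries between 1.76 and 4.12, and the compound libraries between 1.09 and 1.92.

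In the compound libraries Pdgfrb had 11.0, 8.23 and 12.3 CPM with CPTH6 and 7.76, 26.2 and 9.56 CPM with ML324. Pdgfra had 12.5, 13.9 and 11.7 CPM with CPTH6 and 9.26, 28.7 and 12.8 CPM with ML324. All 6 compound libraries lay below all 12 untreated libraries except that Pdgfra in ML324 replicate 2 was above WT replicate 3 at 1 month. ML324 replicate 2 was the highest of its group for both genes.

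Against untreated PLD at 2 months, Pdgfrb was lower by 3.92 ± 0.42 with CPTH6, or 0.0661 times that level (edgeR adjusted p = 0.000492). With ML324 the Pdgfrb change was -3.42 ± 0.41, or 0.0934 times (edgeR adjusted p = 0.00113). Pdgfra changed by -3.44 ± 0.37 with CPTH6 (edgeR adjusted p = 0.000495) and by -2.99 ± 0.36 with ML324 (edgeR adjusted p = 0.00116). Both comparisons share the same 3 untreated libraries. Without ML324 replicate 2 the ML324 changes were -4.15 for Pdgfrb and -3.59 for Pdgfra, still called. The libraries compared differ in month as well as in treatment.

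CPTH6 and ML324 libraries were not told apart in the receptors. The difference CPTH6 minus ML324 was -0.50 ± 0.43 for Pdgfrb, with an interval from -1.48 to 0.48, and -0.45 ± 0.36 for Pdgfra, with an interval from -1.29 to 0.38. Without ML324 replicate 2 these values were 0.24 and 0.15.

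Markers of cells that are known to carry the receptors are given beside these levels. The 18 stellate cell and fibroblast markers averaged 8.03 ± 1.48 log2 CPM in WT against 8.25 ± 0.32 in PLD at 1 month, 8.37 ± 0.45 and 7.43 ± 0.21 at 2 months, 4.15 ± 0.03 with CPTH6 and 4.39 ± 0.97 with ML324 (SD, n = 3). Their summed level ran from 8704 to 18309 CPM in WT and from 5074 to 9886 CPM in PLD at 2 months, and from 634 to 1669 CPM in the compound libraries. Of the 18 markers, 1 rose and 5 fell in PLD at 2 months, where 40.0% of all genes were called, so this count is no more than that share. All 18 were lower with each compound than in PLD at 2 months by edgeR, where 23.1% of all genes were called with CPTH6 and 19.4% with ML324. Col3a1, a fibrillar collagen gene, had 1819 ± 1096 CPM in PLD at 2 months, 116 ± 21.1 with CPTH6 and 184 ± 109 with ML324.

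The 12 pericyte and smooth muscle markers averaged 7.71 ± 1.37 log2 CPM in WT against 6.76 ± 0.23 in PLD at 1 month, 7.58 ± 0.12 and 5.06 ± 0.19 at 2 months, 3.06 ± 0.13 with CPTH6 and 2.83 ± 1.09 with ML324. Of these 12, 10 fell and 0 rose in PLD at 2 months, with a median change of -2.68, where 40.0% of all genes were called. At 1 month 2 fell, where 5.03% of all genes were called. The median change of the stellate cell and fibroblast markers at 2 months was -0.86, and Pdgfra, at 0.07, was not called there. How Pdgfra relates to either list was not tested. The summed level of the pericyte and smooth muscle markers at 2 months ran from 4735 to 5470 CPM in WT and from 700.0 to 1015 CPM in PLD. Acta2, the smooth muscle actin gene, went from 1408 ± 64.5 to 153 ± 17.3 CPM there. Per library, WT replicate 3 at 1 month and ML324 replicate 2 stood apart from their groups in these lists in the same direction as in the receptors, with pericyte means of 6.15 against 8.71 and 8.28, and of 4.09 against 2.19 and 2.22. This was not particular to these lists, as the endothelial list stood at 6.67 against 7.93 and 8.35, and at 5.28 against 2.96 and 3.19. The cholangiocyte list went the other way, at 8.67 against 7.52 and 7.41, and at 9.49 against 9.66 and 9.67. None of the stellate cell, fibroblast, pericyte and smooth muscle markers was at 0 in every library of a group. The part of these cells in the receptor levels was not tested, and in bulk RNA fewer cells of a type and less RNA per cell cannot be told apart.

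**Figure D3:**
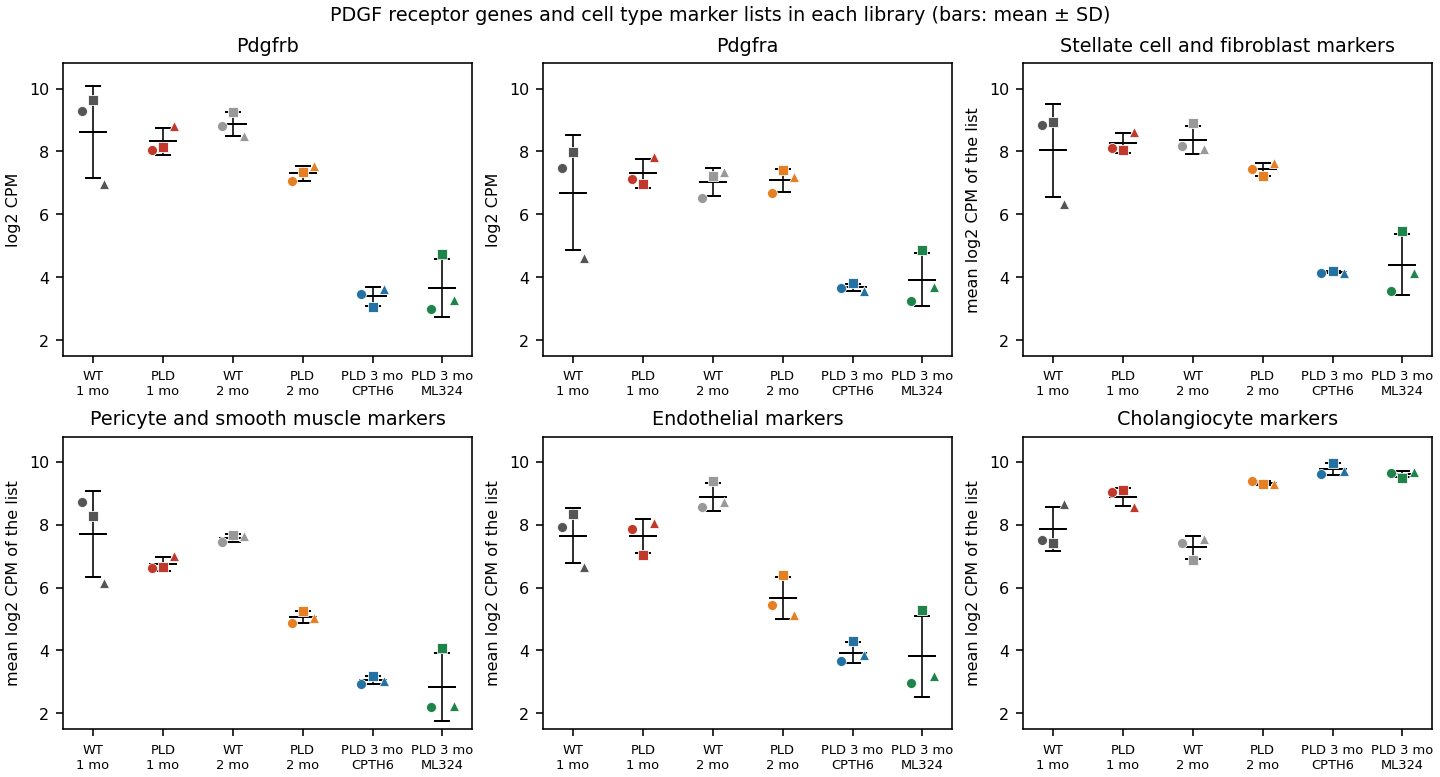
Pdgfrb and Pdgfra in log2 CPM and the mean log2 CPM of 4 cell type marker lists in each library, by group, with mean and SD. The receptors and the stellate cell, pericyte and endothelial lists are lowest in the compound groups, whereas the cholangiocyte list is highest there at 9.76 and 9.61.

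Among the ligands, Pdgfa and Pdgfc rose in PLD at 2 months while Pdgfd was not called. Stretches before annotated starts of these genes are shown so that their base content and a few common promoter elements can be compared. They come from RefSeq on mm10, whose table matched 4 of the 6 genes, and lie on the gene's own strand, 5′ to 3′. Capitals mark matches on either strand to the 4 motifs searched in the 250 bases before a start, which are the GC box GGGCGG, the TATA box TATAAA, the TEAD site GGAATG and the AP-1 site TGANTCA. For Pdgfa, which has 2 starts in the table, the stretch is chr5:138994282-138994398 on the minus strand, the 117 bases before 1 of its starts that hold no exon of the deposited gene model, within the gene's bounds. For Pdgfc it is chr3:81036166-81036415 and for Pdgfd chr9:6168236-6168485, both on the plus strand and outside the gene's bounds.
Pdgfa: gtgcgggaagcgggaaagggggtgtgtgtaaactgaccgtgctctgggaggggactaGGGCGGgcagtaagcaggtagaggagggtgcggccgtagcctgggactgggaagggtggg
Pdgfc: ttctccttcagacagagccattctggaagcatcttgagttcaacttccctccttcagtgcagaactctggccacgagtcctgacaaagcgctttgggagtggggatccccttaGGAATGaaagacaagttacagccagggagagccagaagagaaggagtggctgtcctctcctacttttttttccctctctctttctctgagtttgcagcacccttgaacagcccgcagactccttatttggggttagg
Pdgfd: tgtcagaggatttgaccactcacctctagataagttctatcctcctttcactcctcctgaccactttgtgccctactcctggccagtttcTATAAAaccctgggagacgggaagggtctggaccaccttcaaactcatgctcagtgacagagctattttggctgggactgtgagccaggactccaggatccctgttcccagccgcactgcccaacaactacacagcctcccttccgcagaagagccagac

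The Pdgfa window shown held 1 GC box and its other window 2, an element present in 32.7% of all 32851 windows of 250 bases. The Pdgfc window held 1 TEAD site, present in 12.6% of windows, and the Pdgfd window 1 TATA box, present in 12.4%. No AP-1 site, present in 6.75% of windows, was in these letters. The G and C content was 66.4% and 72.4% in the windows of Pdgfa, 50.8% for Pdgfc and 53.6% for Pdgfd, against a median of 52.4% over all windows. Pdgfa and Pdgfc share none of the motifs searched, and a match is a description of the letters, not a bound site.

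Pdgfa encodes the A chain, a ligand of the alpha receptor that is known from epithelia. The gene (ENSMUSG00000025856.15) lies on the minus strand of chromosome 5 from 138976014 to 138997370. Its levels were 79.9, 83.5 and 57.5 CPM in WT and 108, 135 and 103 CPM in PLD at 1 month. At 2 months they were 60.4, 67.5 and 76.0 CPM in WT and 115, 112 and 101 CPM in PLD. Every untreated PLD library was above every WT library.

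Pdgfa rose by 0.70 ± 0.16 in PLD at 2 months, or 1.62-fold (edgeR adjusted p = 0.00597), and this call held in all 13 alternatives, with 0.61 to 0.80. At 1 month it rose by 0.63 ± 0.16, or 1.55-fold (edgeR adjusted p = 0.0486). The 1 month call was lost in 8 of 13 alternatives, among them the fits without PLD replicate 1, 2 or 3 or WT replicate 1 or 2, with edgeR adjusted p-values up to 0.223, while the direction held in all 13. The response at 2 months differed from that at 1 month by 0.07 ± 0.23, which was not called. The compound libraries, at 97.1, 121 and 97.2 CPM with CPTH6 and 113, 95.7 and 115 CPM with ML324, overlapped untreated PLD at 2 months.

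Pdgfa shares 813 exon bases with 6330403L08Rik on the opposite strand. Counting was without strand, so reads of these genes cannot be told apart in the shared bases, and read pairs that fit both were left out. 6330403L08Rik had at most 37.8% of the counts of Pdgfa in a library. Its own level was 20.9 ± 8.46 CPM in WT against 20.7 ± 2.24 in PLD at 1 month. At 2 months it was 23.9 ± 1.67 CPM in WT against 17.6 ± 2.64 in PLD, so its group means were not higher in PLD, which was not tested.

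Pdgfc encodes the C chain, a ligand of the alpha receptor that is secreted in a latent form and released by cutting off its CUB domain. The gene (ENSMUSG00000028019.9) lies on chromosome 3 from 81036416 to 81214040. At 1 month it had 34.7, 39.0 and 109 CPM in WT and 74.5, 93.9 and 60.4 CPM in PLD. At 2 months it had 54.1, 35.1 and 53.6 CPM in WT and 108, 135 and 107 CPM in PLD. The groups did not overlap at 2 months, and at 1 month WT replicate 3 was the highest of the 6 libraries.

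Pdgfc rose by 1.31 ± 0.39 in PLD at 2 months, or 2.49-fold (edgeR adjusted p = 0.0199), with an interval from 0.46 to 2.16. The call was lost without PLD replicate 2 (1.24, edgeR adjusted p = 0.0589) and without WT replicate 2 (1.16, edgeR adjusted p = 0.0788). At 1 month the change was 0.31 ± 0.38 (edgeR adjusted p = 0.663). Without WT replicate 3 it was 1.04 ± 0.22 (edgeR adjusted p = 0.0098), so that library decides the 1 month result here too. The fit without it called 3485 of 18521 genes, against 892 of 17749 with it. With CPTH6 the levels were 148, 166 and 113 CPM and with ML324 130, 110 and 81.5 CPM, changes of 0.29 ± 0.19 and -0.07 ± 0.19 from untreated PLD at 2 months that were not called.

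Markers of the duct epithelium, a known source of these ligands, are given beside Pdgfa and Pdgfc. The 15 cholangiocyte markers averaged 7.87 ± 0.70 log2 CPM in WT against 8.89 ± 0.29 in PLD at 1 month (SD, n = 3). At 2 months they averaged 7.28 ± 0.37 in WT against 9.33 ± 0.05 in PLD. Of the 15, 12 rose and 0 fell in PLD at 2 months, with a median change of 2.00, where 40.0% of all genes were called. At 1 month 4 rose, where 5.03% of all genes were called. Their summed level ran from 4029 to 8051 CPM in WT and from 22455 to 23446 CPM in PLD at 2 months. WT replicate 3 at 1 month, the highest of its group for Pdgfc and the lowest for Pdgfa, had a marker mean of 8.67 against 7.52 and 7.41 in replicates 1 and 2. The part of the cholangiocyte share in the Pdgfa and Pdgfc levels was not tested.

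Pdgfd encodes the D chain, a ligand of the beta receptor that is also secreted with a CUB domain. The gene (ENSMUSG00000032006.15) lies on chromosome 9 from 6168584 to 6378850. Its levels were 77.7, 97.8 and 157 CPM in WT and 107, 123 and 108 CPM in PLD at 1 month. At 2 months they were 73.5, 64.5 and 81.6 CPM in WT and 86.6, 76.4 and 77.2 CPM in PLD. The genotypes overlapped at both times, with changes of 0.01 ± 0.21 and 0.15 ± 0.22 and intervals from -0.47 to 0.48 and from -0.33 to 0.62.

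Pdgfd had 121, 141 and 119 CPM with CPTH6 and 102, 96.6 and 86.9 CPM with ML324. Every CPTH6 library was above every ML324 library and every untreated PLD library of 2 months. Against untreated PLD at 2 months Pdgfd was higher with CPTH6 by 0.67 ± 0.10, or 1.59-fold (edgeR adjusted p = 0.00206), a call that held in all 12 alternatives. With ML324 the change was 0.30 ± 0.10 (edgeR adjusted p = 0.0659). Set directly against each other, CPTH6 exceeded ML324 by 0.37 ± 0.11, which was not called (edgeR adjusted p = 0.278, unadjusted p = 0.00778). The CPTH6 libraries also lay between 119 and 141 CPM where untreated PLD at 1 month had 107 to 123 CPM, so the size of this difference depends on the month of the untreated group.

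Pdgfb encodes the B chain, which binds both receptors and is known from endothelium, where it recruits pericytes, and from platelets. The gene (ENSMUSG00000000489.7) lies on the minus strand of chromosome 15 from 79995874 to 80014977. Its levels were 85.1, 114 and 79.2 CPM in WT and 100, 75.4 and 67.7 CPM in PLD at 1 month, and 111, 101 and 111 CPM in WT and 100, 61.1 and 109 CPM in PLD at 2 months. The groups overlapped, with changes of -0.21 ± 0.23 and -0.24 ± 0.23. CPTH6 libraries had 150, 188 and 111 CPM and ML324 libraries 161, 73.6 and 89.1 CPM. Against untreated PLD at 2 months the CPTH6 change was 0.73 ± 0.32 (edgeR adjusted p = 0.131) and the ML324 change 0.32 ± 0.32 (edgeR adjusted p = 0.532). Without the filter on low counts the CPTH6 change was 0.78 ± 0.14 and was called (edgeR adjusted p = 4.58e-07). The other 11 alternatives, DESeq2 among them, did not call it. Pdgfb itself had at least 1139 counts in every library, so the filter left its counts as they were. The fit without the filter took in 37164 genes against 16502, and its smaller error is no added evidence from the libraries.

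Markers of other cells known to make Pdgfb are given beside it. The 16 endothelial markers averaged 8.89 ± 0.44 log2 CPM in WT against 5.66 ± 0.66 in PLD at 2 months. By edgeR all 16 fell in PLD there, where 40.0% of all genes were called, while Pdgfb was not called. Their summed level ran from 10415 to 18223 CPM in WT and from 943 to 2117 CPM in PLD at 2 months, and from 196 to 889 CPM in the compound libraries. The 10 platelet and megakaryocyte markers summed to at most 55.7 CPM in any library, and Gp1bb was at 0 in every library of 5 of the 6 groups. The 12 macrophage markers summed to 106 to 1190 CPM. The part of these cells in the ligand levels was not tested.

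**Figure D4:**
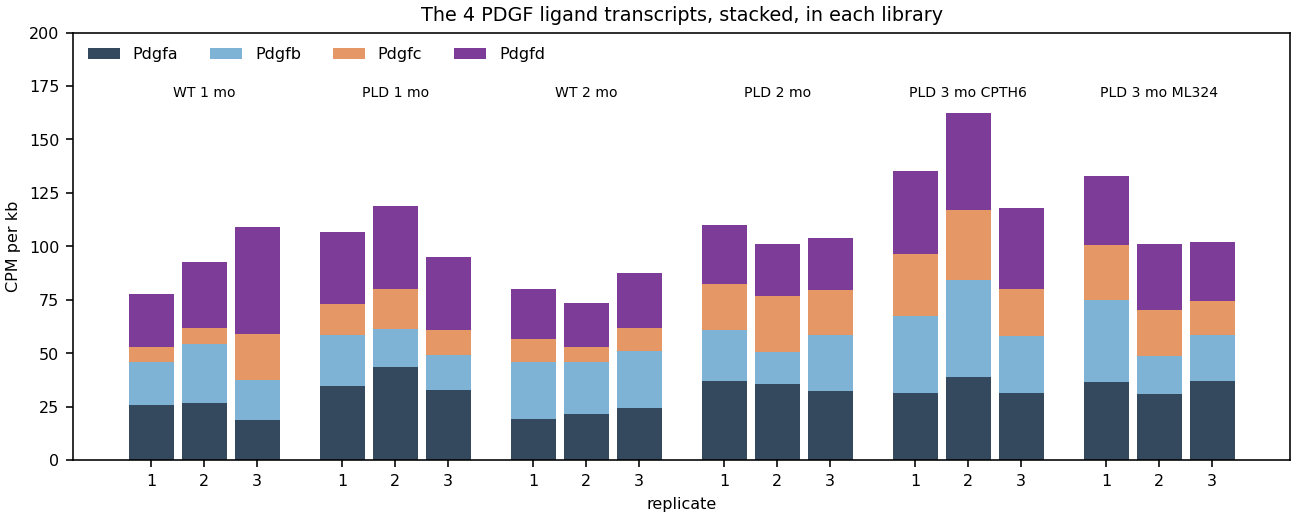
The 4 ligand transcripts in CPM per kilobase of exon, stacked for each of the 18 libraries on an axis from 0. Pdgfc, the third block from below, takes 8.25% to 13.3% of the stack in WT libraries other than replicate 3 at 1 month, and 19.4% to 26.2% in PLD at 2 months.

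On the scale of CPM per kilobase of exon the 4 ligands together reached 80.2 ± 7.06 in WT against 105 ± 4.23 in PLD at 2 months (SD, n = 3). Pdgfc made up 11.6% ± 1.99 of this sum in WT and 22.0% ± 3.72 in PLD. Pdgfb made up 32.3% ± 1.63 and 20.5% ± 5.45, and Pdgfd 28.9% ± 0.881 and 24.2% ± 0.795. At 1 month the Pdgfc share was 12.2% ± 6.45 in WT and 13.9% ± 1.53 in PLD. These shares of 1 sum depend on each other and were not tested. Pdgfa may enter the sum too low, as its exon length includes the bases shared with 6330403L08Rik, and the other shares would then be too high.

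The order of the 6 transcripts per kilobase differed between groups. The exon length used for Pdgfa, 3119 bases, includes the 813 shared with 6330403L08Rik, where read pairs that fit both were left out. Its values per kilobase may thus be too low, and its place among the ligands is not settled. Pdgfrb was the highest in WT at both times and in PLD at 1 month, with group means of 93.8, 86.8 and 60.4 CPM per kilobase, although in WT at 1 month its range overlapped that of Pdgfd. In PLD at 2 months Pdgfa led with 35.0, Pdgfrb followed with 29.2, and each transcript overlapped its neighbour in the order. With CPTH6 the order was Pdgfd (40.4), Pdgfb (36.0), Pdgfa (33.7) and Pdgfc (28.0), all overlapping their neighbours, then Pdgfrb (1.92) and Pdgfra (1.27), which overlapped neither the ligands nor each other. With ML324 the lowest ligand, Pdgfc at 21.1, again lay above Pdgfrb at 2.65 without overlap. The receptors together stood at 1.27 ± 0.405 times the ligands in WT at 2 months, 0.412 ± 0.0852 times in PLD, 0.0237 ± 0.0056 times with CPTH6 and 0.0411 ± 0.0308 times with ML324.

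Counted over the family, PLD against WT at 1 month had 1 of the 6 genes called, where 5.03% of all 17749 genes tested were called in either direction. At 2 months 3 of 6 were called, 2 higher and 1 lower, where 40.0% of all genes were called, so the count is near that share. CPTH6 against untreated PLD at 2 months had 3 of 6, 1 higher and 2 lower, with 23.1% of all 16502 genes called, and ML324 against the same libraries had 2 of 6, both lower, with 19.4% called.

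**Figure D5:**
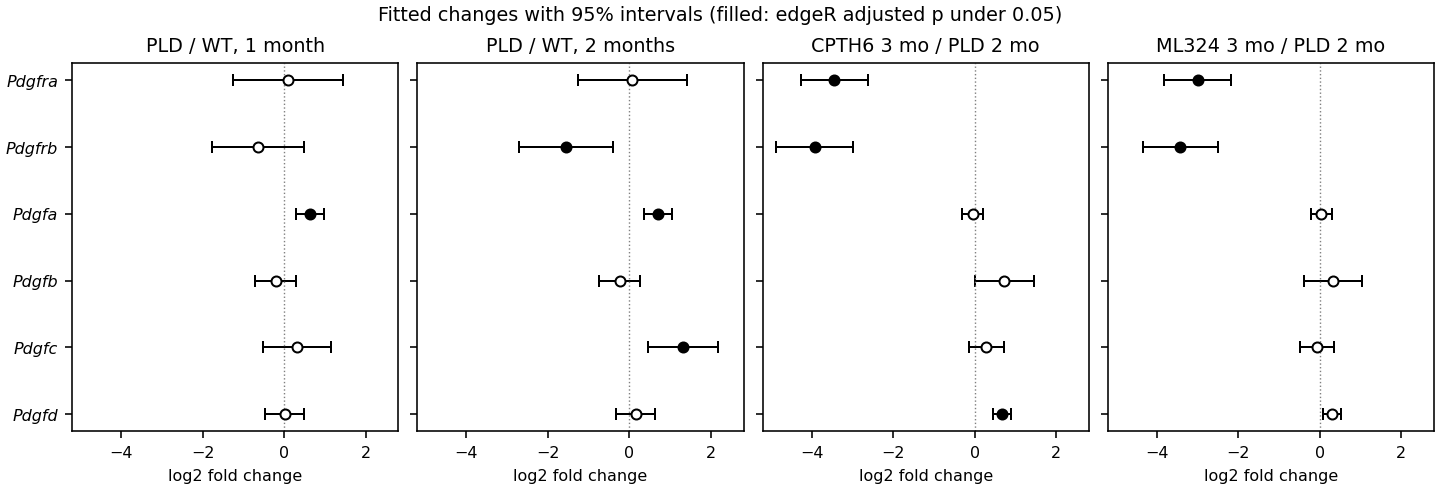
Log2 fold changes of the 6 genes with their 95% intervals in 4 comparisons, filled where edgeR's adjusted p is under 0.05. The receptors span the widest range, from near 0 for Pdgfra in PLD against WT to -3.92 for Pdgfrb with CPTH6, while no ligand change is beyond 1.31.

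Time within a genotype was the question of the next comparisons. From 1 to 2 months in PLD, edgeR called 0 of the 6 genes, and 0 had an unadjusted p under 0.05, while DESeq2 called 0 with 1 under 0.05 (9.61% of all genes were called by edgeR). The values were -1.03 ± 0.52 for Pdgfrb, 0.64 ± 0.38 for Pdgfc and -0.47 ± 0.22 for Pdgfd. The PLD libraries of the 2 times did not overlap for Pdgfrb, at 260 to 452 CPM and 133 to 185 CPM. A fit of only these 6 libraries called all 3, with changes of -1.03, 0.64 and -0.47 and edgeR adjusted p-values of 0.0241, 0.0334 and 0.0165. Without the filter on low counts, in the fit of the 12 untreated libraries, Pdgfrb was called as well, at -1.06 (edgeR adjusted p = 0.0037).

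From 1 to 2 months in WT, edgeR and DESeq2 each called 0 of the 6 genes, and in both 1 gene, Pdgfd at -0.61 ± 0.22, had an unadjusted p under 0.05 (0.0507% of all genes were called by edgeR). The interaction, which asks whether the PLD response differs between the months, had 0 of 6 called and 0 with an unadjusted p under 0.05 by both tools, where edgeR called 5.68% of all genes. Its values were 1.01 ± 0.54 for Pdgfc (interval -0.18 to 2.19) and -0.90 ± 0.72 for Pdgfrb (interval -2.50 to 0.70). In these fits an effect called at 2 months and not at 1 month is thus not shown to differ between the months for any of the 6 genes. Without the filter on low counts the Pdgfc interaction was called, at 0.99 ± 0.32 (edgeR adjusted p = 0.0467), while the other 17 alternatives did not call it.

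CPTH6 against ML324 had 0 of 6 called by edgeR and by DESeq2, with 1 gene, Pdgfd, at an unadjusted p under 0.05 in both. Over all 15989 genes edgeR called 0.0%, although 2008 genes had an unadjusted p under 0.05 and DESeq2 called 262. The other ligands differed by -0.09 ± 0.12 for Pdgfa, 0.42 ± 0.30 for Pdgfb and 0.36 ± 0.19 for Pdgfc, with intervals of -0.37 to 0.19, -0.28 to 1.11 and -0.09 to 0.80.

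The wider pathway was read from 54 genes in 4 lists. In PLD against WT at 2 months 13 rose and 12 fell, and the median change was 0.06 against -0.03 over all genes tested, a count close to the 40.0% called everywhere. At 1 month edgeR called 0 of the 54, with 4 at an unadjusted p under 0.05, and DESeq2 called 1. Of all genes edgeR called 5.03% there.

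Of the 12 genes that process or carry the ligands, 3 rose and 5 fell at 2 months, with a median of -0.40. Of all genes 40.0% were called there. Plat, the tissue plasminogen activator known to cut PDGF-C, rose by 2.53 ± 0.43, and St14, the protease matriptase known to cut PDGF-D, by 2.15 ± 0.34. A2m, a plasma protease inhibitor that also binds PDGF, fell by 3.47 ± 0.39. A2m was also lower at 2 months than at 1 month in PLD (-2.08 ± 0.39), as was the co-receptor gene Nrp1 (-1.37 ± 0.37), and both were called in the interaction, at -3.02 ± 0.51 and -2.22 ± 0.52.

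Of the 4 relatives of the receptors, Kit, the stem cell factor receptor, fell by 4.23 ± 0.47 and Csf1r, the receptor of macrophage colony-stimulating factor, rose by 1.53 ± 0.28 in PLD at 2 months. From 1 to 2 months in PLD, Kit fell by 2.62 ± 0.44 and Csf1r rose by 1.05 ± 0.28, and the interaction for Kit was -4.99 ± 0.62. Pdgfrl, which encodes a receptor-like protein without a kinase, was lower with CPTH6 (-3.38 ± 0.38) and with ML324 (-3.35 ± 0.39) than in untreated PLD at 2 months. Pdgfrl had a change of the same sign and of like size as Pdgfra and Pdgfrb in these libraries.

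Of the 28 signal transducers below the receptors, 8 rose and 5 fell in PLD at 2 months, with a median of 0.07. This count is near the 40.0% of all genes called there. The adaptor gene Nck2 rose by 1.09 ± 0.13, the kinase gene Src by 1.46 ± 0.18 and Pik3r2, a regulatory subunit of phosphoinositide 3-kinase, by 0.83 ± 0.09. From 1 to 2 months in PLD 6 rose and 2 fell, where 9.61% of all genes were called, with Pik3r2 at 0.72 ± 0.09 and Nck1, the other adaptor of that pair, at -0.64 ± 0.11. In the interaction Pik3r2 was at 0.99 ± 0.12 and the kinase gene Fyn at -2.74 ± 0.57. These proteins also serve many other receptors.

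Of the 10 attenuators, 1 rose and 1 fell at 2 months, a count below the 40.0% of all genes called there. Cbl, a ubiquitin ligase that marks activated receptors for removal, fell by 0.54 ± 0.10, and Ptprj, a receptor phosphatase known to act on the beta receptor, rose by 0.79 ± 0.23.

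In the compound libraries 7 of the 54 pathway genes were higher and 14 lower with CPTH6 than in untreated PLD at 2 months, where 23.1% of all genes were called. With ML324 1 was higher and 11 lower, near the 19.4% of all genes called. Ptpn2, the phosphatase known as TC-PTP that acts on PDGF receptors, was higher with both, by 0.87 ± 0.09 and 0.64 ± 0.09. The suppressor gene Socs1 was higher with CPTH6 by 1.13 ± 0.28. Sparc, a matrix protein that binds PDGF-B, was lower by 2.08 ± 0.21 and 2.09 ± 0.21, and Lrp1, an endocytic co-receptor of the beta receptor, by 0.80 ± 0.10 and 0.84 ± 0.10. Pik3r1 changed by -0.68 ± 0.11 and -0.76 ± 0.11, Stat3 by 0.69 ± 0.14 with CPTH6, and Pik3r2 by -0.54 ± 0.10 with ML324. Kit (-1.37 ± 0.40) was lower with CPTH6 and Csf1r (-0.52 ± 0.14) with ML324.

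The genes most like each PDGF gene in pattern were found by the root mean square difference between log2 CPM profiles over the 18 libraries, each centred on its own mean, among 11312 genes with a mean of at least 5 CPM. Pdgfrb, whose own spread on this measure was 2.38, was nearest to Abca8a (0.22), Art4 (0.27) and Tmem119 (0.28). Pdgfra, with a spread of 1.69, was near to Igfbp3 (0.24) and Fam180a (0.26), and it differed from Pdgfrb by 0.96. Abca8a ranged from 3.88 to 451 CPM and Igfbp3 from 57.7 to 1801 CPM over the libraries.

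The ligands varied less, so their nearest genes are less distinct from a flat profile. Pdgfc, with a spread of 0.70, was nearest to Rassf5 (0.17), Rab3ip (0.20) and Hdac11 (0.21). Pdgfa, with a spread of 0.34, was nearest to Slc7a6 (0.14), Tbrg1 (0.15) and Gna13 (0.16). Pdgfd, with a spread of 0.34, was nearest to Kansl1l (0.15), Sox6 (0.16) and Shmt1 (0.17), and Pdgfb, with a spread of 0.42, to Nptxr (0.26), Slc11a2 (0.31) and Stk10 (0.32).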

How the data were processed

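The files hold 1 whole-number count of read pairs per gene and library, as the authors deposited them. Per the file headers, read pairs were counted with featureCounts 1.6.0 on GENCODE mouse release 25 and mm10 without strand, and per the submitters' processing notes STAR 2.7.4a, SAMtools 1.12 and DESeq2 1.26.0 were used. Symbols were matched for 55141 of 55401 genes, no library repeated another, and no row was without a gene. Counts were tested with edgeR 4.0.16 (R 4.3.3), with filterByExpr, TMM factors, a quasi-likelihood F-test and Benjamini-Hochberg adjustment over all genes tested. A model held the 12 untreated libraries, with 8 residual degrees of freedom. It gave each gene a single measure of spread, so libraries of either month enter the errors of both. A model of the 6 compound libraries (4 degrees of freedom) set the compounds against each other, and 1 of 9 libraries (6 degrees of freedom) set them against PLD at 2 months. Log2 CPM adds a prior count of 2. CPM per kilobase divides by the exon length in the deposited files.

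In simulated counts edgeR called 31% of genes changed 2-fold and 77% of those changed 4-fold in PLD against WT at 1 month, among 17749 genes. At 2 months these shares were 25% and 71%, and in the interaction 8% and 48%. Of 15989 genes in CPTH6 against ML324 they were 59% and 83%. In each simulation 100 genes were changed 2-fold, 100 were changed 4-fold and the others were left unchanged. Where many genes change, as at 2 months with 40.0% of all genes called, these values do not give the share of changes found.

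The 6 genes and the lists were chosen with earlier results of these data known. The text names all 6 genes, up to 3 called genes per pathway list in PLD against WT at 2 months and up to 2 elsewhere, by adjusted p, marker genes of the highest mean CPM, and the 3 genes of likest pattern per PDGF gene. A gene that met this rule is not reported here. Alternatives were DESeq2 1.42.0, relative log expression factors, no filter, other sets of libraries in the fit, a replicate block and leaving out libraries. DESeq2 fold changes were not shrunken. The lists of mesothelial and hepatocyte markers summed to 16.9 to 123 CPM and 509 to 5987 CPM in a library.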

Additional observations from a re-analysis of the deposited data

How the results depend on the processing

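Of 624 values of the 6 genes under the alternatives, 552 kept their direction and their side of the threshold, 16 lost a call, 10 gained one and 46 changed sign, all of these in values that were not called. At 1 month the count of called PDGF genes in PLD against WT went from 1 to 0 with relative log expression factors, with only the libraries compared and with the replicate block, to 3 without the pair of WT libraries that stood apart (WT replicate 3 at 1 month among them), and ran from 0 to 3 when 1 library was left out. At 2 months it ran from 1 to 3 with 1 library left out and was 2 with the replicate block, where Pdgfrb lost its call (-1.51, adjusted p = 0.0617). The replicate block changed no other call of a PDGF gene than these. In the labels same-numbered replicates share no more than a number. Of 21 matches, each among 3 libraries, 8 correlated best with their own number, and own-number correlations ran from -0.23 to 0.26. With so few libraries this cannot settle whether same-numbered replicates share a batch. For time in PLD the count went from 0 to 1 without the low-count filter and to 3 with only the libraries compared. In the interaction it went from 0 to 1 without the filter and in no other alternative, as Pdgfc was called (0.99, edgeR adjusted p = 0.0467). For CPTH6 it went from 3 to 4 without the filter and in no other alternative, as Pdgfb was called (0.78, edgeR adjusted p = 4.58e-07).

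Signs turned for Pdgfra without that pair of WT libraries (-0.42 at 1 month, -0.16 at 2 months, 0.26 in the interaction), as for Pdgfc over time in WT (0.26) and for Pdgfb (0.10) and Pdgfd (-0.20) in the interaction. Pdgfd at 1 month was at 0.00 with DESeq2 and with relative log expression factors and at -0.01 with only the libraries compared, and Pdgfa with ML324 at -0.01 with all 18 libraries in 1 fit. With 1 library left out, Pdgfra ran from -0.41 to 0.68 and Pdgfd from -0.21 to 0.35 at 1 month, and Pdgfra from -0.15 to 0.28 and Pdgfb from -0.36 to 0.02 at 2 months. Over time in PLD, Pdgfra ran from -0.39 to 0.10 and Pdgfa from -0.13 to 0.07, and in WT Pdgfra from -0.70 to 0.37, Pdgfrb from -0.60 to 0.32 and Pdgfc from -0.69 to 0.35. In the interaction Pdgfra ran from -0.58 to 0.48, Pdgfa from -0.01 to 0.22, Pdgfb from -0.16 to 0.23 and Pdgfd from -0.19 to 0.39. Between the compounds Pdgfra ran from -0.74 to 0.15 and Pdgfrb from -0.79 to 0.24, and for ML324 against PLD Pdgfa from -0.01 to 0.13, Pdgfb from -0.08 to 0.54 and Pdgfc from -0.21 to 0.09. Where a cause was not given by the samples left out, it was not tested.

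Counts of all called genes moved with the settings, from 29 to 3541 around 892 in PLD against WT at 1 month, 5324 to 7725 around 7091 at 2 months, 135 to 3811 around 1706 for time in PLD, 0 to 1224 around 9 for time in WT, 100 to 2282 around 1008 in the interaction, 0 to 262 around 0 between the compounds, 2490 to 4522 around 3818 for CPTH6 and 1939 to 4073 around 3203 for ML324. For the 54 pathway genes the counts ran from 0 to 9 around 0, 19 to 28 around 25, 1 to 26 around 12, 0 to 3 around 0, 2 to 14 around 8, 0 to 1 around 0, 12 to 23 around 21 and 7 to 20 around 12 in the same order. Without the low-count filter the median over all genes at 2 months was -0.62 against -0.03, as 45191 genes entered. The lowest count of a PDGF gene in a library was 140.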
